A study of Capra hircus with 29 samples.

Results

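PLEKHA3 and 9 genes around phosphatidylinositol 4-phosphate (PI4P), most of them linked to the Golgi, were examined in goat oocytes. They were 10 of the 21343 genes of the deposited expression table. The members were found by their gene symbols, and each symbol belonged to a single gene in the table: PLEKHA3, PLEKHA8, PI4KA, PI4KB, PI4K2A, PI4K2B, SACM1L, OSBP, COL4A3BP and ARF1. PLEKHA3 was chosen for its difference between the high and low fertility populations, so that difference is described here without a test. The other 9 members, called partners below, were chosen by their role, but with earlier results of these data known.

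PI4P is a lipid that marks Golgi membranes. Phosphatidylinositol 4-kinases make it, and the phosphatase SACM1L (SAC1) of the endoplasmic reticulum takes it away again. PLEKHA3 (FAPP1) and PLEKHA8 (FAPP2) hold a pleckstrin homology domain that binds PI4P together with the small GTPase ARF1, and OSBP and COL4A3BP (the ceramide transfer protein CERT) use the same lipid as an anchor while they carry sterol and ceramide to the Golgi. Growing oocytes secrete their zona pellucida glycoproteins through this organelle.

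The samples were oocytes of Ji'ning grey goats, a breed known for large litters, from a high fertility population (H, litters of more than 3 kids per the labels) and a low fertility population (L, fewer than 2), each sampled from follicles of 3 sizes. In the methods, unlike the labels, litters at these limits themselves count as high and low. No genotype, treatment or age was given for either population. HLO, LLO, HMO, LMO and LSO had 5 samples each and HSO had 4 (replicates 1, 3, 4 and 5), where the middle letter is the follicle size (large, medium or small) and O stands for oocyte. Each sample held a few pooled oocytes, the methods state for the high fertility group that the oocytes of a size were pooled before they were divided into samples, and the goats behind a sample are not recorded. P-values therefore measure the spread between these samples, which may be technical. Values are FPKM, fragments mapped to a gene relative to its transcript length and to all mapped fragments of the sample. Differences are high minus low fertility in log2(FPKM + 1), where the added 1 shrinks the difference of weakly expressed genes.

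The oocyte genes GDF9, BMP15, ZP2, ZP3, ZP4 and OOEP were above 0.5 FPKM in 29 of 29 samples, whereas DAZL exceeded this level in 21 samples and NLRP5 in 5. The symbol DAZL is also carried by another gene, listed at 0 in 29 samples, so its level is uncertain. Of the 8 granulosa markers in the table, AMH was listed at 0 in 29 samples, and the receptors FSHR and LHCGR reached 0.283 and 0.046 FPKM at most. Others of that list were present at low levels: INHBA exceeded 0.5 FPKM in 10 samples (at most 5.21 FPKM), FST in 5 (at most 1.54 FPKM) and INHA in 1 (0.782 FPKM). The FPKM of a sample summed to between 222697 (LMO replicate 2) and 490048, and between 6646 (LLO replicate 2) and 8689 genes were above 0.5 FPKM. In medium follicles the summed FPKM of mitochondrially encoded genes ran from 98.8 to 353 in HMO and from 345 to 4610 in LMO. The granulosa markers summed to 0.408 to 1.09 FPKM in HMO and 0.475 to 7.82 FPKM in LMO. The 6 theca and stroma markers in the table summed to 17.2 to 33.3 FPKM in HMO and 27.8 to 48.2 FPKM in LMO. Members of that list did not go together. STAR (18 FPKM) and DCN (7.26 FPKM) had the highest medians. COL1A1 was listed at 0 in 27 samples, LUM exceeded 0.5 FPKM in 6, and CYP17A1 was not in the table. The mitochondrial and marker sums lay higher in LMO with overlapping ranges, and their part in the differences in medium follicles was not tested. In such bulk samples, fewer cells of a type and less RNA per cell cannot be told apart.

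PLEKHA3 (ENSCHIG00000019515) was detected above 0.5 FPKM in 29 of 29 oocyte samples, with 4.59 ± 3.87 FPKM (SD, n = 29), and lay at the 82.1 percentile of all genes by mean level. In medium follicles the HMO samples had 1.31, 1.23, 2.84, 0.798 and 1.98 FPKM and the LMO samples 6.40, 13.4, 7.19, 15.9 and 10.3 FPKM. Every LMO sample stood above every HMO sample, with a wide gap between the groups. In large follicles the HLO samples had 2.93, 1.72, 1.96, 1.02 and 1.89 FPKM and the LLO samples 2.94, 5.68, 6.83, 4.14 and 6.05 FPKM. These groups did not overlap either, but only just, since LLO replicate 1 and HLO replicate 1 lay next to each other. In small follicles the HSO samples had 2.15, 2.76, 2.06 and 3.68 FPKM and the LSO samples 2.92, 2.19, 7.12, 2.66 and 11 FPKM. Here the groups overlapped, and the higher LSO mean rested on replicates 3 and 5, while the other LSO replicates lay within the HSO range. LSO replicates 3 and 5 also held the highest granulosa marker sums of their group, 2.72 and 7.12 FPKM beside 0.765 to 1.3 in the other LSO samples and 0.487 to 1.44 in HSO. Their mitochondrial sums of 4210 and 1960 FPKM were the highest of LSO as well (122 to 1270 in the others), and the part of either in this difference was not tested.

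**Figure D1:**
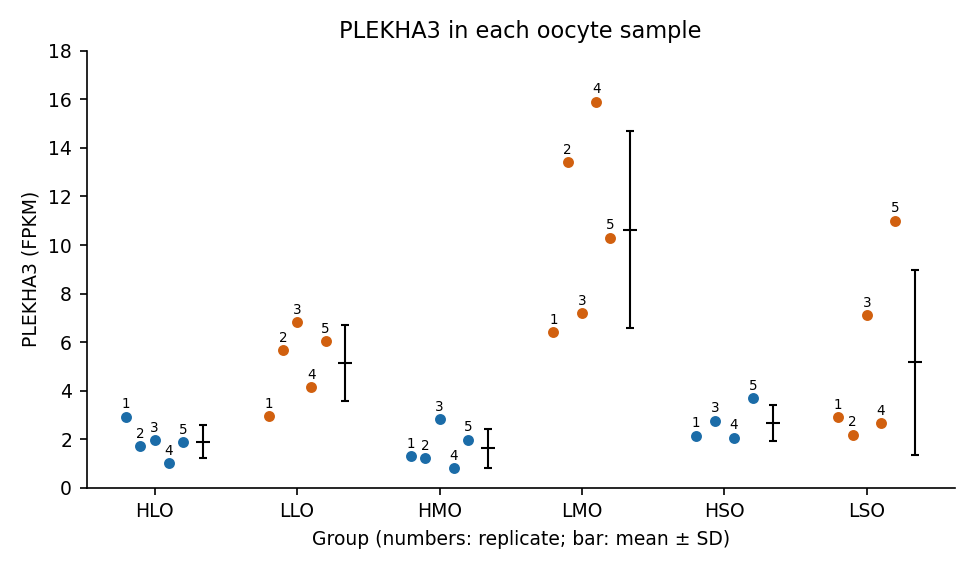
PLEKHA3 level in FPKM (vertical axis, from 0) in each of the 29 oocyte samples by group (horizontal axis), with the high fertility population in blue and the low fertility population in orange, the replicate number above each point and the mean ± SD beside the points. All 14 high fertility samples lay at or below 3.68 FPKM, and the LMO samples lay at 6.40 FPKM or more.

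By mean level the groups ranked LMO (10.6 ± 4.03 FPKM, SD, n = 5), LSO (5.19 ± 3.82, n = 5), LLO (5.13 ± 1.57, n = 5), HSO (2.66 ± 0.746, n = 4), HLO (1.90 ± 0.681, n = 5) and HMO (1.63 ± 0.798, n = 5). The 3 low fertility groups came before the 3 high fertility groups. LSO and LLO did not differ beyond their spread, nor did HLO and HMO. The mean of HSO lay about 1 SD above that of HLO, with overlapping ranges. The ranges of LMO and LSO overlapped through LSO replicates 3 and 5, and those of LLO and HSO through LLO replicate 1.

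The high minus low difference of PLEKHA3 was -2.12 (SE 0.322) in medium, -1.07 (SE 0.338) in large and -0.57 (SE 0.418) in small follicles. As a ratio of mean FPKM, the level in the low fertility population was 6.52 times that in the high fertility population in medium, 2.69 times in large and 1.95 times in small follicles. Of the genes tested, 0.858% in medium, 0.156% in large and 1.3% in small follicles were lower in the high fertility group with no overlap between the groups. PLEKHA3 was chosen on this contrast, so nothing is read from its place among them. The value in medium follicles was -2.03 without LMO replicate 2, whose FPKM sum stood apart from the other samples. In small follicles it was -0.28 without LSO replicate 5, which is less than the SE.

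Follicle size was compared as an average over both populations, in the samples on which PLEKHA3 was chosen. The high LMO level enters the medium mean, so this comparison is not independent of that choice. The model took the high minus low difference as equal in each size, so its change between sizes entered the SE. The level of PLEKHA3 was 3.52 ± 2.05 FPKM in large (SD, n = 10), 6.13 ± 5.48 FPKM in medium (SD, n = 10) and 4.06 ± 3.05 FPKM in small follicles (SD, n = 9). The sizes did not pass limma's F-test with the population as a covariate, which gave an unadjusted p of 0.354 and an adjusted p of 1 among 9692 genes. The large minus medium difference was -0.37 (SE 0.267), the largest of the 3 pairs.

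PLEKHA8, the nearest relative of PLEKHA3 and a carrier of glucosylceramide, was expressed at 1.94 ± 0.597 FPKM (SD, n = 29) and was far more even. In medium follicles the HMO samples had 0.756, 1.58, 1.68, 1.71 and 1.45 FPKM and the LMO samples 2.28, 2.70, 2.38, 2.68 and 1.75 FPKM, so the groups met but did not overlap. The difference was -0.47 (SE 0.210), with an unadjusted p of 0.0425 and an adjusted p of 0.563 by limma over all genes tested. The share of all genes tested that were lower in HMO without overlap was 0.858%. In large and small follicles the difference was -0.08 (SE 0.319) and -0.08 (SE 0.216), and the groups overlapped.

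The ratio of PLEKHA3 to PLEKHA8 within a sample does not depend on how the samples were scaled to each other. Its median was 4.95 in LMO (2.80 to 5.93) and 1.36 in HMO (0.468 to 1.73), with no overlap. PLEKHA3 was thus the more abundant of the pair in every LMO sample, whereas PLEKHA8 was the more abundant in HMO replicates 2 and 4. In large follicles the median ratio was 2.34 in LLO (1.48 to 5.61) and 0.860 in HLO (0.761 to 2.49), where HLO replicate 5 reached into the LLO range. The medians in small follicles were 1.20 in LSO (0.927 to 5.39) and 1.26 in HSO (0.844 to 2.19), nearly the same. These ratios carry the difference for which PLEKHA3 was chosen and are given as a description.

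**Figure D2:**
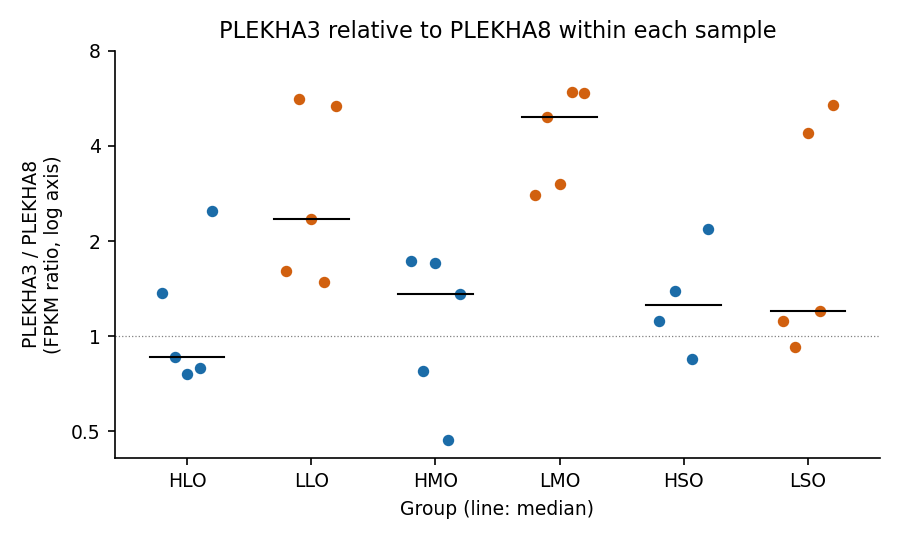
Ratio of PLEKHA3 to PLEKHA8 FPKM in each sample (vertical axis, log scale; the dotted line marks equal levels) by group, blue for high and orange for low fertility, with the median of each group as a line. All 5 LMO samples lay between 2.80 and 5.93 and all 5 HMO samples between 0.468 and 1.73.

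Among the kinases that make PI4P, PI4KB and PI4K2B had the highest levels in these oocytes. PI4KB, the ARF1-dependent kinase of the Golgi, had 1.36 ± 1.31 FPKM (SD, n = 29) and PI4K2B, a palmitoylated kinase of the Golgi and endosomes, 0.800 ± 0.503 FPKM (SD, n = 29). PI4KA, the kinase of the plasma membrane, never exceeded 0.217 FPKM and was listed at 0 in 10 samples. PI4K2A, the other type II kinase, was at 0 in 18 samples, and its highest value was 0.711 FPKM in LSO replicate 1. Both fell below the filter of the tests, which asked for 4 or more samples over 0.5 FPKM in a comparison. For PI4KA the small follicle groups did not overlap (at most 0.0175 FPKM in HSO and at least 0.0255 FPKM in LSO), at levels too low to be tested. The share of all genes tested that were lower in HSO without overlap was 1.3%.

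PI4KB was the most abundant of the 4 kinases in 23 of 29 samples and PI4K2B in the other 6. The median share of the summed kinase FPKM was 61.4% for PI4KB and 33.4% for PI4K2B. In LLO the PI4KB samples had 0.700, 0.0253, 1.67, 2.07 and 0.0216 FPKM. Replicates 2 and 5 thus had almost no PI4KB, and they held the highest PI4K2B levels of all 29 samples, 2.06 and 2.38 FPKM, which made 98.8% and 99.1% of their kinase total. The LMO samples had 1, 7.45, 1.03, 0.706 and 1.17 FPKM of PI4KB. Replicate 2 alone was high there.

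**Figure D3:**
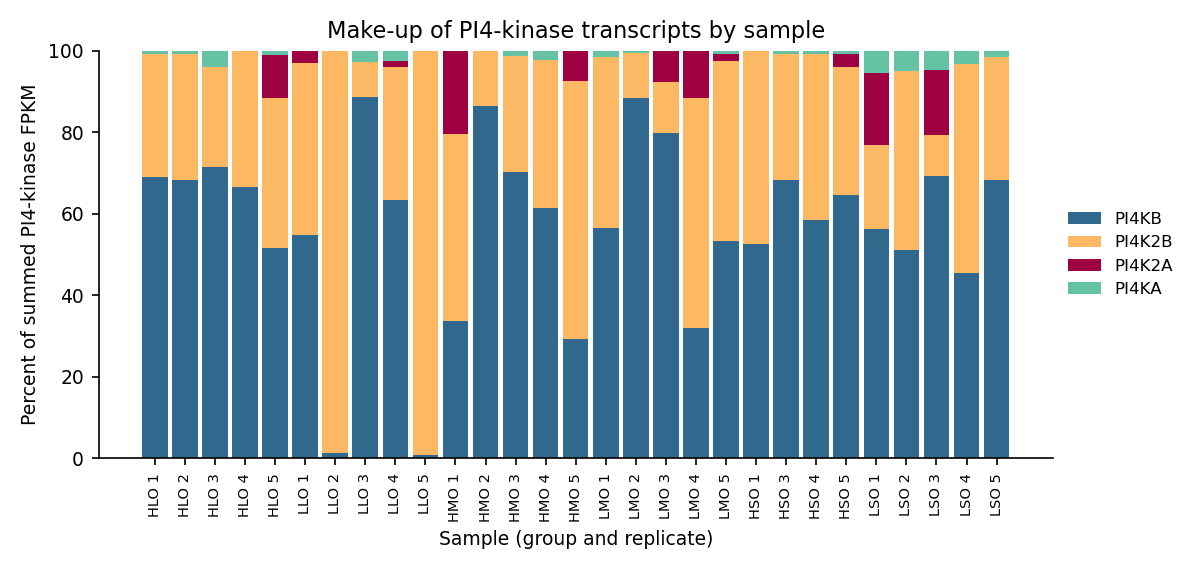
Share of each kinase in the summed FPKM of PI4KA, PI4KB, PI4K2A and PI4K2B (vertical axis, percent) in each sample (horizontal axis, group and replicate number). PI4KB held the largest share in 23 of 29 samples, and PI4K2B held 98.8% and 99.1% in LLO replicates 2 and 5.

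Neither kinase passed the adjusted test between the populations. The difference of PI4KB was 0.49 (SE 0.337, adjusted p = 0.828 by limma) in large, -0.34 (SE 0.417, adjusted p = 0.824) in medium and -0.16 (SE 0.221, adjusted p = 0.912) in small follicles. With a pseudocount of 0.1 the value in large follicles was 1.45 (adjusted p = 0.806), and with a sample left out it ran from 0.30 to 0.70. Its sign in medium follicles rested on LMO replicate 2, without which the difference was 0.08. PI4K2B gave -0.31 (SE 0.298), -0.09 (SE 0.202) and -0.04 (SE 0.217), with overlapping groups in each size. Its value in large follicles was -0.13 without LLO replicate 5 and -0.17 without LLO replicate 2.

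SACM1L, the phosphatase, was one of the most even members. It had 1.81 ± 0.594 FPKM (SD, n = 29) and group means from 1.57 (LSO) to 2.31 FPKM (LLO). The difference between the populations was -0.33 (SE 0.302) in large, 0.12 (SE 0.224) in medium and 0.11 (SE 0.224) in small follicles, with adjusted p-values of 0.831, 0.896 and 0.943 by limma.

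The lipid carriers that dock on PI4P differed in level. COL4A3BP (CERT) had 5.71 ± 2.2 FPKM (SD, n = 29), and OSBP, which trades sterol for PI4P, 0.355 ± 0.324 FPKM (SD, n = 29) with more than 0.5 FPKM in 8 samples. COL4A3BP was lower in the high fertility group by mean in each size, with differences of -0.22 (SE 0.405) in large, -0.31 (SE 0.282) in medium and -0.46 (SE 0.311) in small follicles. None passed the adjusted test (adjusted p = 0.900, 0.753 and 0.880 by limma), and the groups overlapped in each size. The small follicle samples of COL4A3BP had 3.72, 5.33, 6.40 and 3.26 FPKM in HSO and 10.5, 7.01, 5.90, 5.52 and 5.10 FPKM in LSO. In large follicles its sign rested on LLO replicate 2 (13.2 FPKM), without which the difference was 0.05. OSBP fell below the filter in each comparison of the populations, and its group means ran from 0.213 (LLO) to 0.493 FPKM (LMO), the latter with 1.47 FPKM in replicate 2.

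ARF1, the GTPase that PLEKHA3 and PLEKHA8 bind beside PI4P, was the most abundant member and had the widest spread within groups in log2(FPKM + 1), with 37.7 ± 35.6 FPKM (SD, n = 29) and a range from 2.55 (LMO replicate 2) to 138 FPKM (HSO replicate 5). The HLO samples had 68.1, 10.2, 18.7, 9.21 and 74.9 FPKM and the LLO samples 79.4, 17.4, 10.1, 31.9 and 124 FPKM. The HMO samples had 54.6, 10.5, 7.27, 15.4 and 40.3 FPKM and the LMO samples 33.4, 2.55, 7.72, 62.4 and 61.4 FPKM. In these 4 groups replicates 1 and 5 stood above replicates 2 and 3, whichever the population. The HSO samples (replicates 1, 3, 4 and 5) had 46.9, 11.1, 18.8 and 138 FPKM and the LSO samples 4.17, 8.13, 10.2, 44.6 and 70.7 FPKM. LSO replicate 1 was the exception to that order. Differences between the populations were -0.50 (SE 0.788), -0.05 (SE 0.823) and 1.01 (SE 0.892) in large, medium and small follicles, all smaller than the spread within the groups (adjusted p = 0.880, 0.995 and 0.880 by limma). Single samples moved these values: ARF1 was -0.06 in large follicles without LLO replicate 5 and 0.35 in small follicles without HSO replicate 5.

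**Figure D4:**
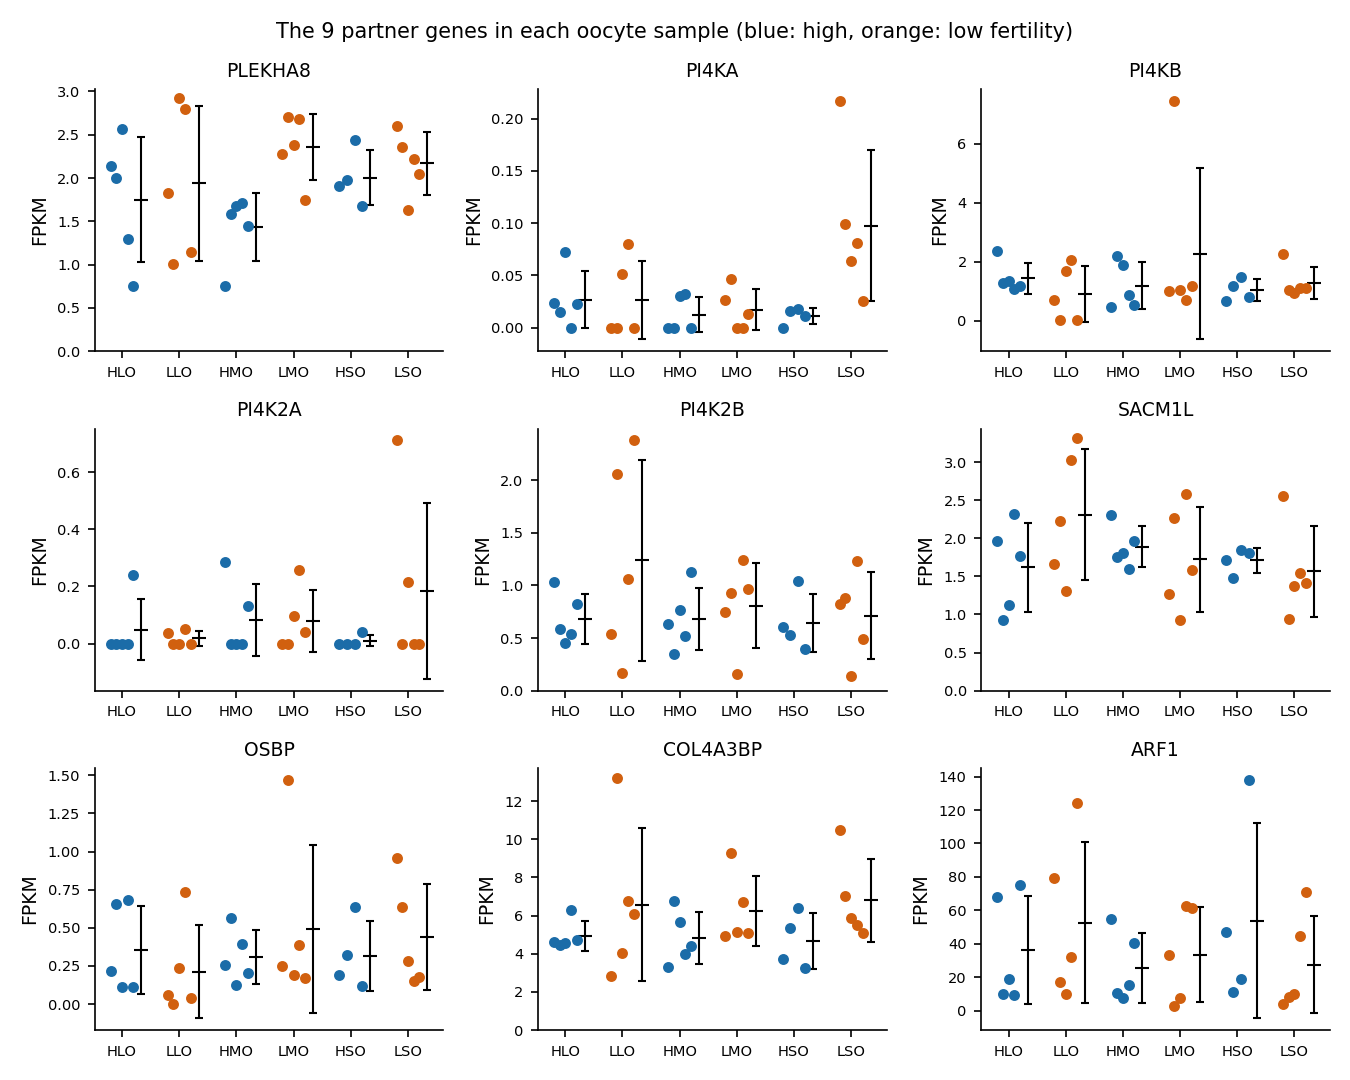
Levels of the 9 partner genes in FPKM (vertical axes, one scale per gene) in each oocyte sample by group, blue for high and orange for low fertility, with the mean ± SD beside the points. PI4KA stayed at or below 0.217 FPKM and ARF1 ranged from 2.55 to 138 FPKM, and single samples stood apart for PI4KB and OSBP in LMO.

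Of the 9 partners, 6 could be tested in each comparison of the populations (PLEKHA8, PI4KB, PI4K2B, SACM1L, COL4A3BP and ARF1), and 0 had an adjusted p under 0.05, beside 0%, 0.0715% and 0.0119% of all genes tested in large, medium and small follicles. At an unadjusted p under 0.05 the partners gave 0, 1 and 0, where the 1 was PLEKHA8, beside 4.14%, 8.67% and 4.41% of all genes tested by limma (1.16%, 3.58% and 2.36% lower in the high fertility group). The median difference of the 6 partners was -0.26 in large, -0.20 in medium and -0.06 in small follicles, beside medians of -0.09, -0.07 and -0.01 over all genes tested. For follicle size (background 1.66% unadjusted and 0% adjusted) and for the difference between the sizes in the high minus low contrast (7.89% and 0%), 7 partners were tested. None had a p under 0.05 in either test, unadjusted or adjusted, and the smallest adjusted p-values were 1 and 0.845.

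**Figure D5:**
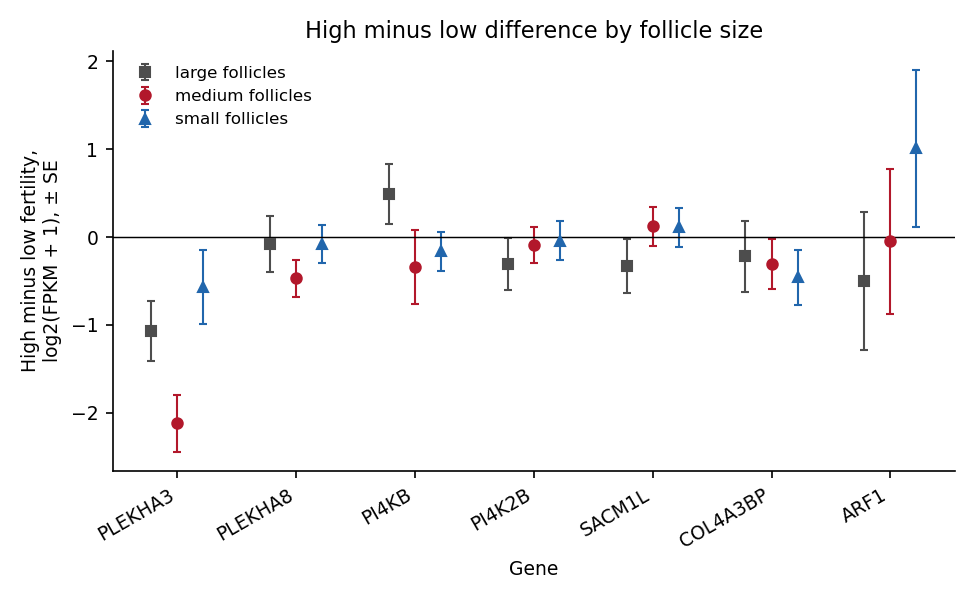
High minus low difference on the scale log2(FPKM + 1) with its standard error (vertical axis) for PLEKHA3 and the 6 partners above the filter (horizontal axis), in large (squares), medium (circles) and small follicles (triangles). PLEKHA3 lay at -1.07, -2.12 and -0.57, and the partners lay between -0.50 and 1.01.

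The wider machinery around these genes was read from 6 lists, of 67 symbols in all, of which 64 were in the table as 68 genes. Of the 44 genes tested in large follicles 16 were higher and 28 lower in the high fertility group, of 44 in medium follicles 22 and 22, and of 46 in small follicles 16 and 30. Over all genes tested, 57.6% in large, 56.5% in medium and 50.8% in small follicles were lower in the high fertility group. These directions were not tested for the lists. No list gene had an adjusted p under 0.05. At an unadjusted p under 0.05 there were 1, 1 and 0, all lower in the high fertility group, beside 4.14%, 8.67% and 4.41% of all genes tested, and the median differences were -0.11, -0.01 and -0.10. For follicle size 1 of 49 had an unadjusted p under 0.05 (background 1.66%) and for the difference between sizes 4 of 49 (CERS6, GBF1, OSBPL11 and PITPNB, background 7.89%), again 0 after adjustment. The counts for follicle size and for the difference between sizes were near the background. Those between the populations lay below it.

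GBF1, the exchange factor that loads ARF1 with GTP at the Golgi, was the gene of the wider lists with the smallest p in medium follicles. The HMO samples had 4.31, 5.15, 3.72, 4.10 and 5.31 FPKM and the LMO samples 6.49, 14.2, 6.17, 9.40 and 6.95 FPKM. The groups did not overlap, which held for 0.858% of all genes tested in this direction, and LMO replicate 2 was the highest of all. The difference was -0.75 (SE 0.288, unadjusted p = 0.0218, adjusted p = 0.491 by limma), and -0.57 without LMO replicate 2. In large and small follicles GBF1 gave 0.21 (SE 0.346) and 0.01 (SE 0.288), and the interaction p was 0.0223 (adjusted 0.516). The list it belongs to, the ARF cycle, had 1 of 10 tested genes with an unadjusted p under 0.05 in medium follicles, near the background of 8.67%, and 0 of 10 in the other sizes. ARFGAP1, which ends the ARF1 cycle by GTP hydrolysis, had 1.58 FPKM in HLO and 0.699 FPKM in LLO (0.66, SE 0.351, adjusted p = 0.828 by limma). In medium and small follicles its difference had the opposite sign, -0.47 (SE 0.491) and -0.81 (SE 0.531). LMO replicate 2 alone was high there, at 11.6 FPKM. The other LMO samples, at 0.322 to 1.63 FPKM, did not lie above the HMO samples (0.483 to 2.33 FPKM). In LSO the highest sample was replicate 1 with 9.48 FPKM. ARFGEF2, an exchange factor of the trans-Golgi, had 0.564 FPKM in HSO and 1.14 FPKM in LSO (-0.43, SE 0.204, adjusted p = 0.880).

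Among the 12 tested genes for lipid transfer at contacts with the endoplasmic reticulum, OSBPL1A (ENSCHIG00000000386), an OSBP relative of late endosomes, had 9.18 ± 3.65 FPKM in HLO and 27.0 ± 16.9 FPKM in LLO (SD, n = 5 each). Its difference was -1.24 (SE 0.556, unadjusted p = 0.0432, adjusted p = 0.828 by limma), and -0.73 (SE 0.368, adjusted p = 0.880) in small follicles. The symbol is carried by a second gene listed at 0 in all samples, so the level is uncertain. PITPNB, which exchanges phosphatidylinositol between membranes, had a positive difference in medium follicles, with 5.66 ± 4.07 FPKM in HMO and 2.15 ± 0.890 FPKM in LMO (0.88, SE 0.439, adjusted p = 0.596). Its difference was -0.89 (SE 0.522, adjusted p = 0.828 by limma) in large and -0.38 (SE 0.454) in small follicles. In small follicles 11 of the 12 genes of this list had a negative difference, as did 50.8% of all genes tested, with 0 past an unadjusted p of 0.05. The ceramide products went the other way in medium follicles, where 6 genes were higher and 0 lower in the high fertility group. Over all genes tested there, 56.5% were lower. Large follicles gave 3 higher and 3 lower for that list, and small follicles 4 and 2. Neither direction was tested for its list.

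CERS6, a ceramide synthase upstream of CERT, came first in the lists for follicle size by limma's F-test, with an unadjusted p of 0.0233 and an adjusted p of 1. Its level was 0.981 ± 0.660 FPKM in HSO (SD, n = 4), 0.372 ± 0.365 FPKM in HLO (SD, n = 5) and under 0.05 FPKM by mean in the other groups. The pattern was thus not one of follicle size alone, since each low fertility group was near 0. For the difference between sizes in the high minus low contrast, limma's F-test gave CERS6 an unadjusted p of 0.00237 (adjusted 0.256). The next gene for follicle size, OSBPL6, had 0.691 ± 0.378 FPKM in LSO and 0.255 to 0.379 FPKM by mean in the other groups. Its unadjusted p by limma's F-test was 0.0641 and its adjusted p was 1. Of the remaining lists, the partners of the PI4-kinases had 5 to 6 genes tested per size, the Golgi PI4P readers 3 to 4 and the enzymes of phosphoinositide interconversion 7 to 8, with 0 at an unadjusted p under 0.05 in each size.

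The most abundant gene of each list showed which parts of the machinery these oocytes express strongly. SGMS2, which turns ceramide into sphingomyelin, had 166 ± 76.9 FPKM (SD, n = 29). OSBPL9, which moves PI4P and phosphatidylserine, had 36.1 ± 18.3 FPKM and ARL1, a GTPase of the trans-Golgi, 31.7 ± 13.6 FPKM. GOLPH3L, a PI4P-binding Golgi protein, had 28.2 ± 23.0 FPKM. OSBPL9 and GOLPH3L each share their symbol with another gene that was at or near 0, so their levels are uncertain. ACBD3, the Golgi protein that recruits PI4KB, had 6.03 ± 5.17 FPKM and INPP5B, a phosphoinositide phosphatase, 5.45 ± 4.84 FPKM.

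The genes whose pattern was most like PLEKHA3 were sought by Pearson's r of log2(FPKM + 1) over the 29 samples, among 9692 genes. They were IRX5 (r = 0.70), CCNG2 (r = 0.70), ABCC1 (r = 0.70), ASXL2 (r = 0.68) and ATP8B1 (r = 0.67). IRX5, a homeobox factor, averaged 0.179 FPKM and its rank correlation was 0.38. Of the samples in which it exceeded 0.5 FPKM, 3 of 4 were LMO samples. For CCNG2, which encodes cyclin G2, the mean was 1.82 FPKM in LMO and 1.09 FPKM in HMO, and for ABCC1, an export pump, 1.12 and 0.462 FPKM. ASXL2, a chromatin regulator, had 3.11 FPKM in LMO and 1.66 FPKM in HMO, and ATP8B1, a phospholipid flippase, 2.61 and 1.10 FPKM. Each of the 5 was higher in the low than in the high fertility population by mean in each follicle size, which the choice of PLEKHA3 and of its closest correlates favours. The points share libraries, and the 6 group means enter r. With values centred within the groups r fell to between 0.37 and 0.55, and without LMO replicates 2 and 4, the samples farthest in PLEKHA3, it was 0.54 to 0.64.

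The lowest r was sought among the 7808 genes with a symbol that is carried by 1 gene and does not begin with LOC. There it belonged to PSMB9, an immunoproteasome subunit (r = -0.66), C15orf65 (r = -0.63) and SDC2, a syndecan (r = -0.58). PSMB9 had 18.3 ± 8.73 FPKM in HMO and 4.80 ± 3.06 FPKM in LMO (SD, n = 5 each), but in large follicles its mean was higher in LLO (17.5 FPKM) than in HLO (15.1 FPKM), as that of PLEKHA3 was. Centred within the groups, r was -0.55 for PSMB9, -0.40 for C15orf65 and -0.10 for SDC2. Of the partners, PLEKHA8 had the highest r with PLEKHA3 (0.35), followed by COL4A3BP (0.29), and the other partners tested lay between -0.03 and 0.14. Centred within the groups, PLEKHA8 gave -0.05 and COL4A3BP 0.03.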

How the data were processed

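Polyadenylated RNA of goat oocytes was sequenced on an Illumina instrument. The authors kept uniquely matched reads with few mismatches, removed duplicates with picard and deposited FPKM per gene from Cufflinks with the Ensembl annotation. The aligner and genome build are not given in the sources used here. The table holds no counts, so the depth behind a value is unknown and no counting interval is given. The 29 samples were found in the table by their column names, and 1 further column of sample values was not used because its name fits none of them. GC samples were not analysed here.

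High and low fertility groups were compared within each follicle size with limma (moderated test, intensity trend) on log2(FPKM + 1). Genes entered when 4 or more of the compared samples exceeded 0.5 FPKM, and p-values were adjusted by Benjamini-Hochberg over all of these (8328, 8390 and 8376 genes). Follicle size was tested by an F-test on the 29 samples, adjusted for population, and the difference between sizes by the interaction of a model of 6 group means (9692 genes each). The procedure was also run on simulated data. That simulation gave each sample independent noise, so it cannot speak to noise that samples share.

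The members, the lists and the rule for naming genes were chosen with earlier results of these data known. Named were all members and the most abundant gene of each wider list. In each comparison the 2 list genes of smallest unadjusted p were added, since none passed after adjustment. The 5 genes most and 3 least like PLEKHA3 were taken among genes with a symbol carried by 1 gene and not beginning with LOC. The lists held partners of the PI4-kinases, the ARF cycle, Golgi PI4P readers, lipid transfer at contacts with the endoplasmic reticulum, ceramide products and phosphoinositide interconversion. Oocyte, granulosa, theca and stroma, and leukocyte markers served as a check, and the 5 leukocyte markers summed to under 1 FPKM in each sample. Alternatives were a pseudocount of 0.1, the filter dropped or raised to 1 FPKM, array weights, quantile normalization, scaling by median-of-ratios factors, the replicate number as a block, 1 fit over all samples and each sample left out. Software was limma 3.58.1 in R 4.3.3, and scipy 1.17.1, pandas 2.3.3, numpy 2.4.6 and matplotlib 3.10.9 in Python 3.11.15. Gene order came from RefSeq (assembly ARS1.2).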

Additional observations from a re-analysis of the deposited data

Results flagged for a closer look

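In 49 combinations of a member gene and a group of 4 or 5 samples, 6 held a sample far from the others by Dixon's criterion on FPKM. Its chance rate of about 1 in 20 assumes normally distributed values, which was not checked for these levels. No excess is therefore read from the count. For PLEKHA8, HMO replicate 1 was low at 0.756 FPKM, with the others at 1.45 to 1.71 FPKM, and without it the high minus low difference in medium follicles was -0.36. PI4KB was high in LMO replicate 2 (7.45 FPKM, the others 0.706 to 1.17 FPKM), in HLO replicate 1 (2.35 FPKM, the others 1.07 to 1.33 FPKM) and in LSO replicate 1 (2.26 FPKM, the others 0.943 to 1.11 FPKM). OSBP was high in LMO replicate 2 as well, at 1.47 FPKM against 0.170 to 0.384 FPKM in the others. COL4A3BP had 6.32 FPKM in HLO replicate 4 and 4.48 to 4.70 FPKM in the other HLO samples. No sample of PLEKHA3 stood apart by this criterion.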

How the results depend on the processing

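PLEKHA3 kept its direction under all alternatives in each follicle size. In medium follicles it was -2.67 with a pseudocount of 0.1 and -2.71 as the log2 ratio of mean FPKM, and with a sample left out it ran from -2.27 to -1.97. The ranges with a sample left out were -1.22 to -0.95 in large and -0.76 to -0.28 in small follicles. No partner passed the adjusted threshold in any of 316 alternatives of the high minus low comparisons, with 0.0728 as the smallest adjusted p, and the single PLEKHA8 call at an unadjusted p was lost in 9 of 18 alternatives: with median-of-ratios factors (-0.40), with quantile normalization (-0.43), and without HMO replicate 1, 3 or 5 or LMO replicate 1, 2, 3 or 4. GBF1 in medium follicles passed with array weights only (-0.72, adjusted p = 0.0461 by limma).

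Directions of small differences turned. PLEKHA8 in large follicles was 0.02 with median-of-ratios factors and 0.16 with array weights (-0.21 to 0.07 with a sample left out), and COL4A3BP there ran from -0.43 to 0.05. ARF1 in medium follicles was 0.06 with median-of-ratios factors and -1.50 with array weights, the alternative with the smallest adjusted p of a partner (-0.69 to 0.35 with a sample left out). In large follicles ARF1 was -1.24 with array weights (-0.93 to -0.06 with a sample left out), and in small follicles 0.35 to 1.53. In medium follicles PI4KB was 0.05 with array weights (-0.50 to 0.08). PI4K2B in small follicles was 0.01 with a pseudocount of 0.1 and with median-of-ratios factors, 0.03 with quantile normalization, 0.02 with array weights and 0.00 with the replicate block (-0.18 to 0.07). The cause of these changes was not tested.

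Genes past the adjusted threshold over the whole table numbered 6 in medium follicles, 0 without a filter, 13 with median-of-ratios factors, 14 with quantile normalization, 1011 with array weights (7 of them from the wider lists) and 3 in 1 fit over all samples, and 0 to 160 with a sample left out: 160 without HMO replicate 2, 0 without HMO replicates 4 or 5 or LMO replicates 4 or 5, 1 without HMO replicate 1 or LMO replicate 2, and 2 without LMO replicate 3. Large follicles gave 0, with array weights 2 and without LLO replicate 3 1 (0 to 1 in all). Small follicles gave 1, with a pseudocount of 0.1 2, in 1 fit 0, and 0 to 2 with a sample left out. The interaction gave 0, 2 with either scaling, 231 with array weights (1 from the wider lists), and 0 to 59 with a sample left out, 59 without HMO replicate 2. Follicle size gave 0 under all of them.

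The replicate numbers were not taken to pair samples. The deviations of samples with the same number correlated with a median r of 0.47 over 70 pairs, from -0.572 to 0.745, beside a median of -0.176 over 280 pairs with other numbers. As a replicate block they gave 1 gene in large, 127 in medium and 0 in small follicles and 70 for the interaction. PLEKHA3 with the block was -1.07, -2.12 and -0.76.

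Of the 5 genes most like PLEKHA3, 4 were shared with a ranking by Spearman's rho, 5 with median-of-ratios factors and 0 with values centred within groups. Of the 3 least like it, 1, 0 and 1 were shared. FPKM without counts leave the precision of the low members, PI4KA, PI4K2A and OSBP, unknown.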

Other observations

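The neighbours of PLEKHA3 in the RefSeq gene order were looked up after the values were seen. FKBP7, an endoplasmic reticulum prolyl isomerase encoded next to PLEKHA3 without overlap, went the opposite way in medium follicles, with 3.05 ± 2.02 FPKM in HMO and 0.145 ± 0.175 FPKM in LMO (SD, n = 5 each), a difference of 1.60 (SE 0.407, adjusted p = 0.172 by limma over all genes tested). The ranges overlapped because HMO held a sample listed at 0. In the other sizes FKBP7 was higher in the low fertility population by mean, at 1.79 FPKM in LLO and 0.334 FPKM in HLO, and at 3.09 FPKM in LSO and 0.260 FPKM in HSO, with overlapping groups. TTN on the other side had 2.15 FPKM in HMO and 3.49 FPKM in LMO (-0.47, adjusted p = 0.683), from 1 of 3 genes that carry the symbol. Farther off, PRKRA, CCDC141 and SESTD1 gave differences of 0.42, 0.20 and -0.19 in medium follicles. They gave -1.11, -0.48 and -0.12 in large and -0.54, -0.47 and 0.23 in small follicles. None of these neighbours had an adjusted p under 0.05 by limma.

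LMO replicate 2 had the lowest FPKM sum of the 29 samples (222697), the highest PI4KB (7.45 FPKM), OSBP (1.47 FPKM) and GBF1 (14.2 FPKM) and the lowest ARF1 (2.55 FPKM).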
